A study of Arabidopsis thaliana with 6 samples.

Results

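Expansins were followed in whole plants of the Arabidopsis thaliana mutant ceh1 and of its parent line, hybridised to 1-colour Affymetrix arrays. The family was taken as the probe sets that the platform annotation pairs with 1 gene whose symbol begins with EXPA, EXPB, EXLA or EXLB followed by a number. This gave 18 of the 13513 single-gene probe sets, 10 for alpha-expansins, 4 for beta-expansins, 3 for expansin-like A genes and 1 for the expansin-like B gene EXLB1. The TAIR10.1 gene table lists 34 genes with such symbols, of which 3 are named only on probe sets shared by several genes and 13 are not analysed here.

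The mutant group was ceh1, with 3 biological replicates and 1 array each, and the other group was its parent, which the labels call wild type, with 3 biological replicates. Seeds were kept at 4 °C for 2 days and the plants grew for 2 weeks on Murashige and Skoog medium at 23 °C under 8 h of light and 16 h of darkness. About 20 plants were collected for RNA, and the labels do not say whether that number is per replicate. The gene mutated in ceh1 is HDS, whose product works in plastids on the methylerythritol phosphate route to isoprenoids, and the mutant is known to accumulate the substrate of that enzyme. The labels name 1 mutant line, so no second allele was compared.

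Expansins are secreted proteins that loosen the plant cell wall without cutting its polymers. They act at acidic pH, where they are thought to release contacts between cellulose microfibrils and xyloglucan, so that turgor can extend the wall. Alpha-expansins are the classical wall-loosening class of growing tissues, and beta-expansins are the class to which the group 1 pollen allergens of grasses belong. For the expansin-like A and B proteins, which share the domain layout, a wall-loosening activity has not been established.

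The arrays were not at a common level as deposited. Their trimmed mean intensity was 131.0, 177.0 and 174.2 in ceh1 replicates 1, 2 and 3 and 172.8, 136.6 and 110.6 in parent replicates 1, 2 and 3, so values were quantile normalised on the scale log2(intensity + 2). All log2 signals below are on that scale, on which the change of dim genes is understated, and levels of different genes are not compared. At an adjusted p under 0.05 by limma, 3.77% of the 15922 tested probe sets differed between the genotypes, 417 of them being higher in ceh1 and 183 lower. Without normalization between arrays the median difference over all probe sets was 0.21, and 657 were higher and 61 lower. The control for 25S ribosomal RNA read an intensity of 1343, 4598 and 1132 in ceh1 and 416.9, 985.4 and 293.7 in the parent. The log2 ratio of the actin 3' to 5' controls was 4.02, 4.11 and 4.12 in ceh1, against 4.30, 4.49 and 4.32 in the parent. It was lower on each ceh1 array than on each parent array, and its part in the expansin values was not tested. In whole plants, fewer cells of a type and less RNA per cell cannot be told apart.

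Of the 18 expansins, 12 passed the filter on dim probe sets (a mean log2 signal of at least 3.80 over the 6 arrays), and 1 of these 12, EXPA8, changed. It fell. The other 11 did not pass the test, and 0 rose (limma, with 4 of the 12 at an unadjusted p under 0.05, beside 20.9% of all tested probe sets). Of all tested probe sets 2.62% rose and 1.15% fell, and with 1 gene of 12 the count by itself says little about the family.

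EXPA8 (AT2G40610, chromosome 2) encodes an alpha-expansin. Its deposited intensity was 171.5, 140.3 and 110.2 in ceh1, against 1085, 729.0 and 496.3 in the parent. After normalization its log2 signal was 7.60, 6.87 and 6.53 in ceh1, against 9.85, 9.61 and 9.36 in the parent. The groups did not overlap on either scale, and the highest ceh1 array lay well below the lowest parent array. EXPA8 averaged 7.0 ± 0.54 in ceh1 and 9.61 ± 0.24 in the parent (SD, n = 3 each), a difference of −2.61 ± 0.29 in log2 (SE; adjusted p = 0.00536 by limma). This is a 6.09-fold lower signal, with a 95% interval of 3.81-fold to 9.73-fold. Among all 15922 tested probe sets its difference was the 11th most negative. The call held with each of the 6 arrays left out, when the adjusted p of limma ran from 0.00646 to 0.0370, and under all other alternatives run.

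**Figure D1:**
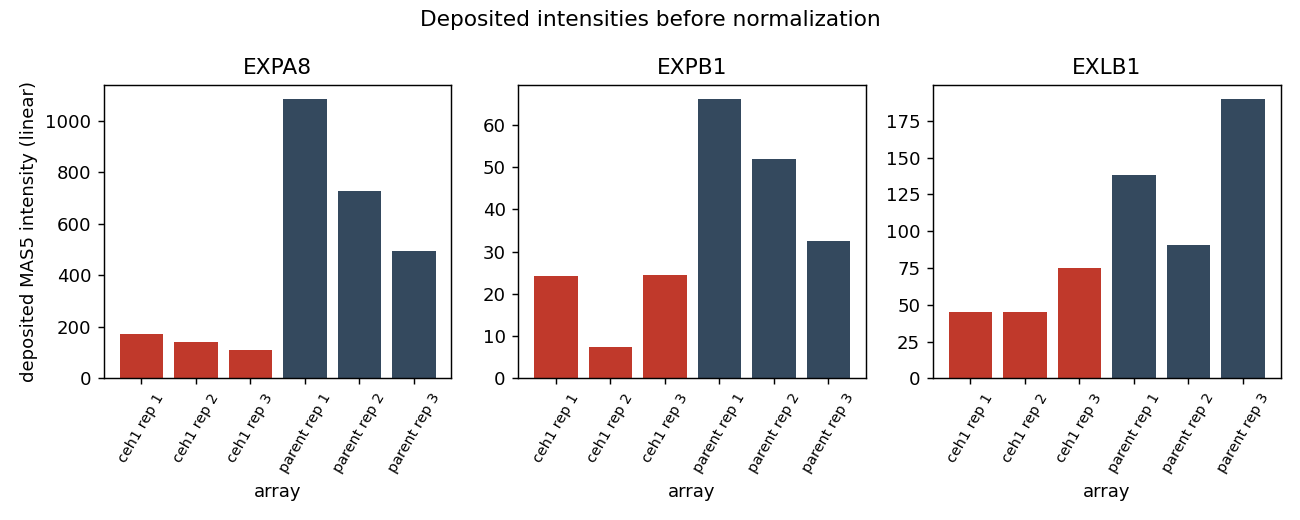
Deposited MAS5 intensity on a linear scale for EXPA8, EXPB1 and EXLB1, 1 bar per array, ceh1 in red and parent in dark blue, before any normalization between arrays. The 3 ceh1 bars of EXPA8 reach 110.2 to 171.5 and the 3 parent bars 496.3 to 1085, and in all 3 genes each ceh1 bar is below each parent bar.

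The beta-expansin gene EXPB1 and the expansin-like gene EXLB1 had the next most negative differences and did not pass the threshold. EXPB1 (AT2G20750, chromosome 2) had a log2 signal of 4.77, 3.23 and 4.43 in ceh1, against 5.92, 5.91 and 5.51 in the parent. All 3 ceh1 arrays lay below all 3 parent arrays, with ceh1 replicate 2 lowest. The difference was −1.64 ± 0.41 on the log2 scale (SE, 95% interval −2.60 to −0.69; limma, adjusted p = 0.0765). With array weights EXPB1 passed, at an adjusted p of 0.0210 (limma), and without ceh1 replicate 2 its difference was −1.16.

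EXLB1 (AT4G17030, chromosome 4) had a log2 signal of 5.66, 5.36 and 6.0 in ceh1, against 6.94, 6.69 and 8.03 in the parent. Again no ceh1 array reached a parent array, and parent replicate 3 stood highest. Its mean was 5.67 ± 0.32 in ceh1 and 7.22 ± 0.71 in the parent (SD, n = 3 each), a difference of −1.55 ± 0.36 (SE, 95% interval −2.39 to −0.70; limma, adjusted p = 0.0652). EXLB1 passed with array weights and without normalization between arrays, at an adjusted p of 0.0307 and 0.0421 (limma). Without parent replicate 3 the difference was −1.15.

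**Figure D2:**
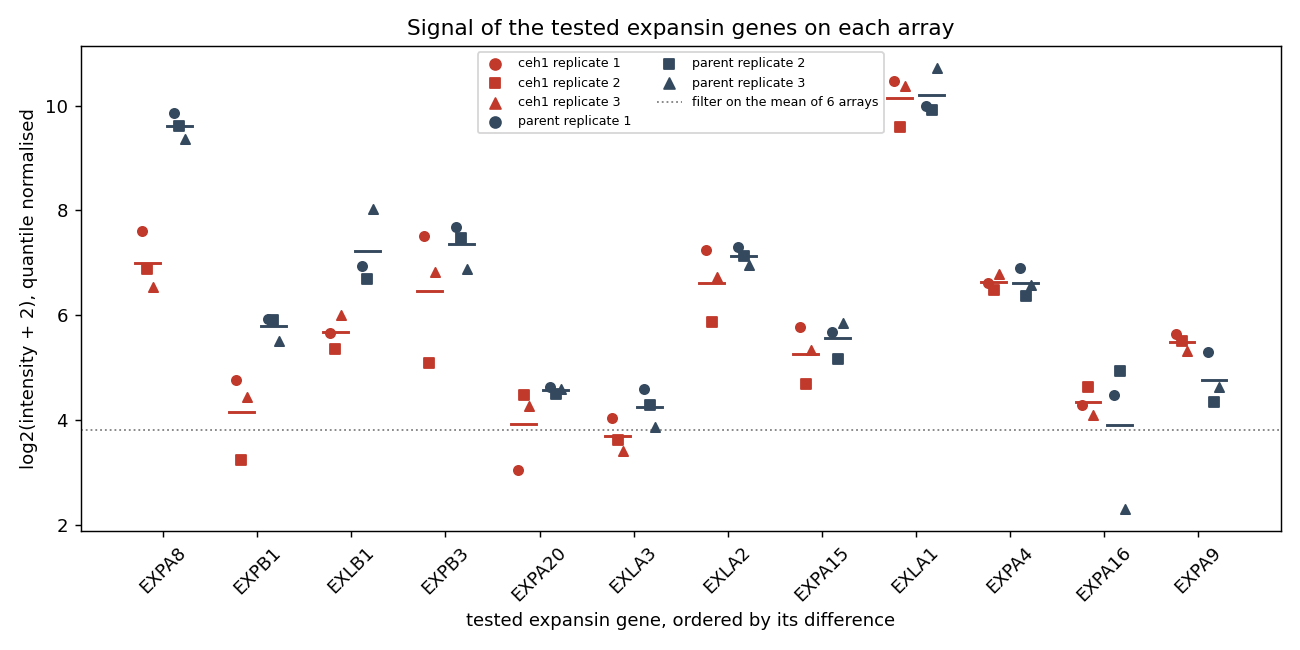
Log2 signal of the 12 tested expansin genes on each array, ceh1 in red to the left of parent in dark blue, with the marker shape giving the replicate and the short line the group mean. EXPA8, with ceh1 mean of 7.0 against 9.61 in the parent, shows the widest gap, while EXPA4 and EXLA1 show overlapping groups.

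Among the other alpha-expansins, EXPA9 had the one positive difference without overlap. EXPA9 (AT5G02260) had a log2 signal of 5.64, 5.51 and 5.31 in ceh1, against 5.30, 4.34 and 4.62 in the parent. The lowest ceh1 array lay just above the highest parent array. The difference was 0.73 ± 0.29 (SE, 95% interval 0.06 to 1.41) and did not pass (limma, adjusted p = 0.209).

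EXPA20 (AT4G38210) had 3.05, 4.47 and 4.27 in ceh1, against 4.62, 4.49 and 4.59 in the parent. The groups barely separated, ceh1 replicate 2 lying beside the parent arrays and ceh1 replicate 1 far below them, and the difference of −0.64 did not pass (limma, adjusted p = 0.435). As deposited, the groups of EXPA20 overlapped, at 6.66, 21.9 and 21.3 in ceh1, against 23.9, 18.4 and 17.2 in the parent. EXPA4, EXPA15 and EXPA16 had overlapping groups.

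EXPA4 (AT2G39700) had 6.61, 6.48 and 6.79 in ceh1, against 6.90, 6.37 and 6.57 in the parent. Its difference of 0.02 had the narrowest 95% interval of the family, −0.44 to 0.48, which leaves out a change as large as that of EXPA8 in either direction. EXPA15 (AT2G03090) had 5.77, 4.68 and 5.33 in ceh1, against 5.68, 5.16 and 5.86 in the parent, a difference of −0.30 (limma, adjusted p = 0.656).

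EXPA16 (AT3G55500) had 4.28, 4.63 and 4.10 in ceh1, against 4.48, 4.93 and 2.30 in the parent. Parent replicate 3 alone stood low, and the difference of 0.43 turned to −0.38 without it. With array weights the differences of EXPA4 and EXPA16 were −0.02 and −0.19, so neither gene has a settled direction.

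The second tested beta-expansin, EXPB3 (AT4G28250), had 7.50, 5.09 and 6.82 in ceh1, against 7.69, 7.47 and 6.89 in the parent. Only ceh1 replicate 2 lay far from the rest, since replicate 1 fell among the parent arrays. The difference was −0.88 (95% interval −2.22 to 0.46; limma, adjusted p = 0.436), and −0.19 without ceh1 replicate 2.

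All 3 expansin-like A genes had overlapping groups. EXLA1 and EXLA3 are next to each other among the protein-coding genes of chromosome 3, and EXLA2 lies on chromosome 4. EXLA1 (AT3G45970) had a log2 signal of 10.47, 9.59 and 10.37 in ceh1, against 10, 9.91 and 10.72 in the parent. Its difference of −0.07 (95% interval −0.78 to 0.65) turned positive under 4 alternatives, among them leaving out ceh1 replicate 2, with 0.21.

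EXLA2 (AT4G38400), whose loss is known to raise resistance to necrotrophic fungi, had 7.25, 5.87 and 6.72 in ceh1, against 7.29, 7.13 and 6.96 in the parent. Its difference was −0.52 (95% interval −1.30 to 0.27; limma, adjusted p = 0.436), and −0.14 without ceh1 replicate 2, which was its lowest array. EXLA3 (AT3G45960) had 4.03, 3.61 and 3.41 in ceh1, against 4.59, 4.28 and 3.86 in the parent, a difference of −0.56 (limma, adjusted p = 0.414). EXLA3 passed the filter only through its parent arrays, since its ceh1 mean of 3.68 was below the filter.

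**Figure D3:**
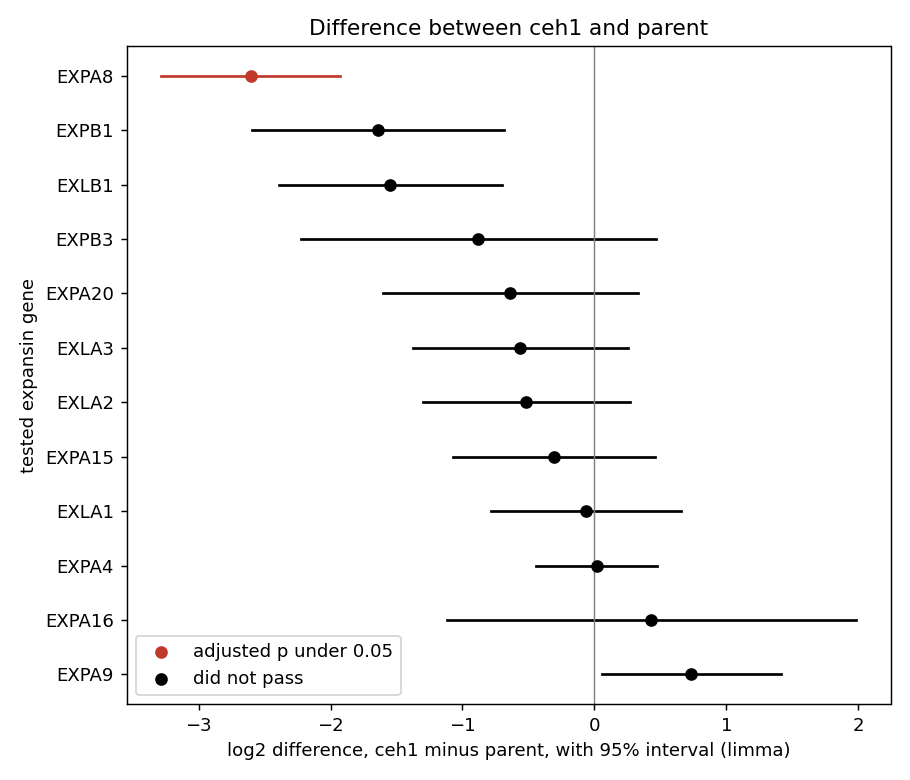
Log2 difference of each tested expansin gene, ceh1 minus parent, with its 95% interval from limma, in red where the adjusted p was under 0.05. The interval of EXPA8, −3.28 to −1.93, lies below those of EXPA4, EXLA1 and EXPA9, and the intervals of 8 of the 12 genes include 0.

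The other 6 members were too dim to be tested. They were the alpha-expansins EXPA7, EXPA18, EXPA21 and EXPA24 and the beta-expansins EXPB2 and EXPB5. EXPA7 and EXPA18, which are known for their expression in root hair cells, had mean log2 signals of 2.32 and 2.21 in ceh1, against 3.07 and 2.59 in the parent. EXPA7 ran from 2.12 to 2.64 in ceh1, against 2.08 to 3.95 in the parent. EXPA18 ran from 1.57 to 3.45 in ceh1, against 1.80 to 3.81 in the parent. In both genes the groups overlapped, and at this signal no difference could be measured.

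EXPA21 and EXPA24 lie at the ends of a run of expansin genes on chromosome 5. Their mean log2 signals were 1.47 and 1.83 in ceh1, against 1.85 and 2.07 in the parent. Genes between them share probe sets, which were also below the filter. The probe set of EXPA25 and EXPA23 averaged 1.5 in ceh1 and 1.96 in the parent, and that of EXP26 and EXPA22 averaged 1.94 in ceh1 and 2.85 in the parent.

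EXPB2 ran from 1.56 to 3.46 in ceh1, against 2.55 to 3.89 in the parent, and EXPB5 from 2.06 to 3.82 in ceh1, against 2.08 to 4.45 in the parent. Both had overlapping groups.

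As a family, the 12 tested expansins had a median log2 difference of −0.54, beside −0.03 for all tested probe sets. Of the 12, 9 had a difference below 0, as had 53.3% of all tested probe sets. Without EXLA3, which passed the filter only through its parent arrays, the median was −0.52 and 8 of 11 had a difference below 0, an alternative added after the data were seen. In 5 of the 12 the groups did not overlap after normalization. EXPA8, EXPB1, EXLB1 and EXPA20 had lower values in ceh1 and EXPA9 higher ones, and EXPA20 overlapped as deposited. Of all tested probe sets 27.5% did not overlap, 15.1% with lower and 12.4% with higher values in ceh1. By class, the 6 alpha-expansins had a median of −0.14, with differences from −2.61 to 0.73 and 3 on each side of 0. Both tested beta-expansins, EXLB1, EXLA1 and EXLA2 had differences below 0, though that of EXLA1 turned positive without normalization, at 0.06. The difference of EXLA3, whose sign the filter favoured, was −0.56.

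The family median rested largely on ceh1 replicate 2. That array was the lowest of all 6 for 6 of the 12 genes (EXPB1, EXPB3, EXLA1, EXLA2, EXPA15 and EXLB1), beside 22.8% of all tested probe sets. Taking each gene's deviation from its own mean, the median deviation of the 12 genes was 0.11, −0.66 and −0.09 in ceh1 replicates 1, 2 and 3, and 0.40, 0.25 and 0.21 in parent replicates 1, 2 and 3. All 3 ceh1 arrays were below all 3 parent arrays in this measure, but replicate 1 only narrowly. Without ceh1 replicate 2 the median difference was −0.16, while EXPA8 still fell, with a difference of −2.55 (adjusted p = 0.0259 by limma). The same array had the highest 25S ribosomal RNA signal of the 6, and the part of that signal in the expansin values was not tested.

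**Figure D4:**
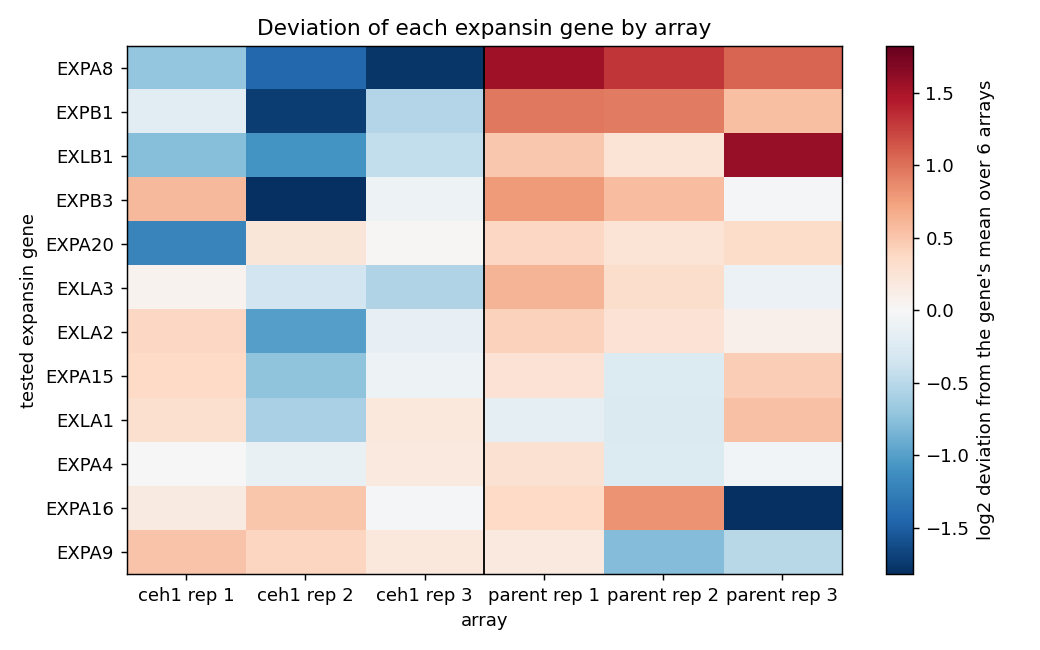
Deviation of each tested expansin gene from its own mean over the 6 arrays, on the log2 scale, with blue for lower and red for higher values and the 3 ceh1 arrays to the left of the 3 parent arrays. The column of ceh1 replicate 2 is the bluest, with a median of −0.66 over the 12 genes, and the row of EXPA8 is blue in all ceh1 arrays and red in all parent arrays.

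The spread between replicates differed widely among the 12 genes. Their median SD was 0.52 in ceh1 and 0.36 in the parent, beside 0.29 in ceh1 and 0.24 in the parent for all tested probe sets. EXPA4 had an SD of 0.16 in ceh1 and 0.27 in the parent, while EXPB3 had 1.24 in ceh1 and 0.42 in the parent, and EXPA16 had 0.27 in ceh1 and 1.41 in the parent. The ceh1 SD was the larger in 7 of the 12 genes, a share close to the 55.6% of all tested probe sets.

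Other genes of wall growth, of the auxin response and of gibberellin signalling were read from lists of gene families and pooled. Of 28 tested members, 4 rose and 0 fell (limma), beside 2.62% and 1.15% of all tested probe sets. PRP39, a factor of RNA processing that matched the list of proline-rich proteins by name only, is not among the 28. With array weights 8 rose and 2 fell, XTH32 and IAA29, where 935 of the 15922 tested probe sets rose and 880 fell. Without parent replicate 3 IAA30 fell, where 181 of the 15922 fell. Among the xyloglucan endotransglucosylases, which cut and rejoin the xyloglucan that tethers cellulose, 1 of 6 rose and the median was 0.68. The one that rose was XTH18, with log2 signals of 8.30, 7.03 and 8.39 in ceh1, against 4.85, 4.86 and 5.32 in the parent (limma, adjusted p = 0.00983). The call of XTH18 was lost without parent replicate 1 or without parent replicate 2, where the adjusted p of limma reached 0.0561.

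Among the pectin methylesterases, which remove methyl groups from wall pectin, 1 of 3 rose. It was PMEPCRF, with 9.39, 9.05 and 9.15 in ceh1, against 8.06, 8.07 and 7.54 in the parent, a difference of 1.31 (limma, adjusted p = 0.0202). Of 8 cellulose synthase-like genes 1 rose, CSLD2, of a class of synthases known for tip growth, with 7.86, 8.14 and 7.76 in ceh1, against 7.09, 7.03 and 7.06 in the parent (limma, adjusted p = 0.0383). The median of that list was −0.11. COB, a membrane-anchored protein that orients cellulose in expanding cells, had a difference of −0.03 (limma, adjusted p = 0.929).

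Of 7 genes of the auxin response 1 rose, GH3.3, which encodes an enzyme that joins auxin to amino acids. It had 7.84, 8.80 and 7.48 in ceh1, against 6.41, 5.99 and 5.09 in the parent (limma, adjusted p = 0.0385), and the list median was −0.41. The 3 gibberellin receptor genes GID1A, GID1B and GID1C had differences of 0.43, 1.12 and 0.17, and 0 passed (limma, with GID1B alone at an unadjusted p under 0.05, 0.00225). GID1B had an adjusted p of 0.0541 (limma) and passed with array weights and without normalization between arrays. The call of CSLD2 was also lost without normalization between arrays (limma, adjusted p = 0.0868). The calls of CSLD2 and GH3.3 were lost without a trend in the variance prior and with any 1 array left out, and that of PMEPCRF without ceh1 replicate 1, ceh1 replicate 3, parent replicate 1 or parent replicate 2 (limma, adjusted p up to 0.164, 0.135 and 0.0778). No single-gene probe set of fasciclin or arabinogalactan proteins, aquaporins, GASA peptides or brassinosteroid genes matched the lists. The 9233 probe sets with several genes or no gene in the platform annotation were not searched, and such genes may be among them.

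The tissue markers were few. Of 13 root hair markers 0 had a single-gene probe set, of 8 root markers 1, PYK10, and of 7 leaf mesophyll markers 1, RCA. PYK10, a beta-glucosidase of roots, had log2 signals of 10.46, 10.62 and 10.50 in ceh1, against 9.49, 9.83 and 8.62 in the parent. Its ceh1 arrays were all above its parent arrays, and the difference of 1.21 did not pass (limma, adjusted p = 0.0733). PYK10 passed with array weights and without parent replicate 3, at an adjusted p of 0.0322 and 0.0473 (limma). RCA, the activase of the carbon-fixing enzyme Rubisco in leaves, had 12.94, 12.63 and 12.49 in ceh1, against 12.89, 12.96 and 12.87 in the parent, a difference of −0.22 (limma, adjusted p = 0.435). Before normalization, the deposited intensity of PYK10 ran from 1195 to 1862 in ceh1, against 289.9 to 857.8 in the parent. That of RCA ran from 5911 to 6901 in ceh1, against 6939 to 8856 in the parent. The part of tissue make-up in the expansin values was not tested.

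**Figure D5:**
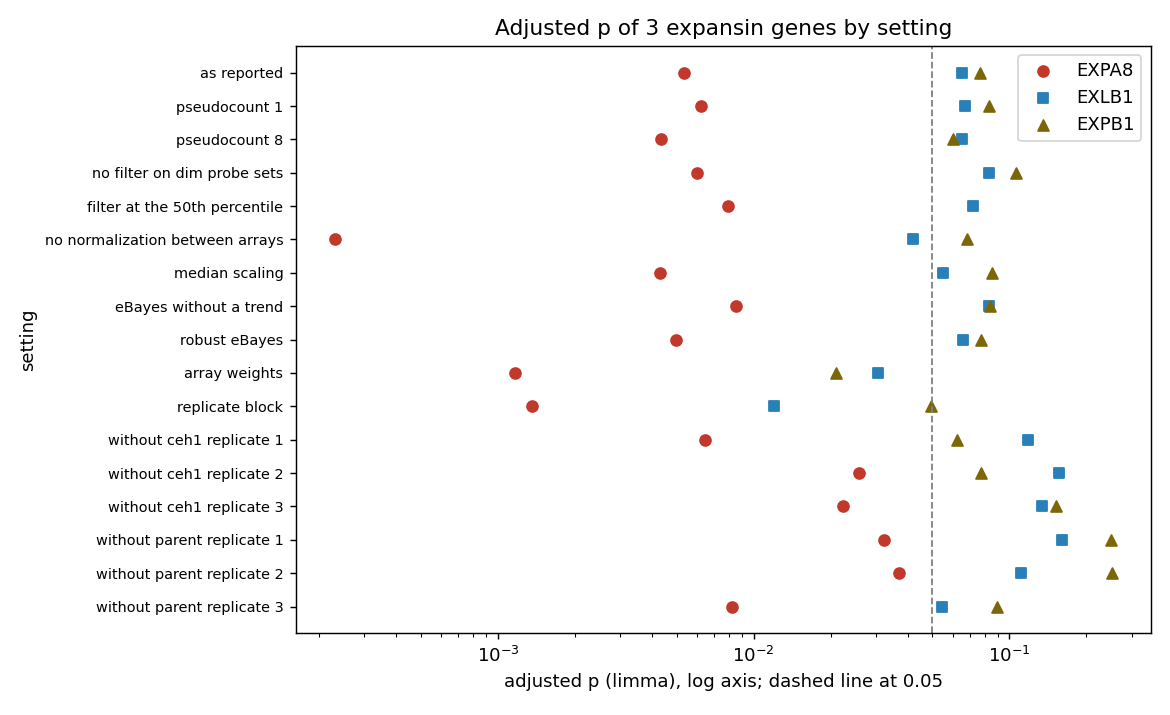
Adjusted p of limma on a log axis for EXPA8, EXLB1 and EXPB1 as reported and under each alternative setting, with a dashed line at 0.05. EXPA8 lies left of the line in all settings, with its highest value of 0.0370 without parent replicate 2, while EXLB1 and EXPB1 cross it in 3 and 2 settings.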

How the data were processed

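The authors deposited linear probe set intensities, made with MAS5 per the submitters' processing notes. Its version and settings and any genome build were not given in the sources used here. In all 22810 probe sets were listed, and 64 controls were set aside. Of the other 22746, 13513 had 1 gene in the platform annotation, and 13436 of these matched the TAIR10.1 gene table, used for names and gene order only. Values were transformed as log2(intensity + 2) and quantile normalised, and a filter on the mean at the 30th percentile kept 15922 probe sets. The test of ceh1 against the parent was two-sided and used limma 3.58.1 under R 4.3.3, with a trend in the variance prior of eBayes. P-values were adjusted over the 15922 by Benjamini-Hochberg, with a threshold of 0.05. In 5 runs of simulated arrays of this size, 27.2% of probe sets changed by 1 log2 unit and 70.4% of those changed by 2 were recovered, and 4.28% of calls were false. The simulated noise was normal and independent for each probe set and array. Structure shared between probe sets of the real arrays was not simulated, so these shares may not hold for them. For arrays the number, 3 per group, limits the precision, and depth in read counts does not apply.

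The members, the lists and the leading settings were chosen with earlier results of these data known. All single-gene expansins are named, with the passing members and markers of each list. The GID1 genes, COB, PRP39, XTH19, XTH32, IAA29 and IAA30 were named after their values were seen. Each of these was tried instead: a pseudocount of 1 or 8, keeping dim probe sets or cutting at the 50th percentile, no normalization or median scaling, a variance prior with no trend or a robust one, array weights, a block for the replicate number, and leaving out each array.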

Additional observations from a re-analysis of the deposited data

How the results depend on the processing

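EXPA8 passed under all 16 alternatives, with log2 differences from −2.91 to −2.38. The count of expansins past the threshold was 1, and became 2 without normalization (EXPA8, EXLB1), 3 with array weights and 3 with the replicate block (EXPA8, EXPB1, EXLB1), and stayed at 1 with any 1 array left out. The block gave an adjusted p of 0.0120 for EXLB1, 0.0494 for EXPB1 and 0.0322 for the root marker PYK10 (limma). Same-numbered arrays correlated at 0.27, 0.06 and 0.47 in their deviations from the group means, and ceh1 replicate 1 correlated better with parent replicate 2 (0.34) than with its own number, so the numbers were not taken as pairs. The family median kept its sign in all 16, between −0.70 and −0.16, and between −0.65 and −0.16 with 1 array left out, the last without ceh1 replicate 2. Differences that changed sign were those of EXLA1 (0.063 without normalization, 0.25 with array weights, and −0.23 to 0.21 with 1 array left out, above 0 without ceh1 replicate 2 or parent replicate 3), EXPA16 (−0.19 with array weights, and −0.38 to 0.95 with 1 array left out, below 0 without parent replicate 3) and EXPA4 (−0.024 with array weights, and −0.10 to 0.16 with 1 array left out, below 0 without ceh1 replicate 3, parent replicate 2 or parent replicate 3). Over all tested probe sets 600 passed, 384 when cut at the 50th percentile, 1815 by array weights, 1160 by the replicate block and 152 to 676 with 1 array left out. Of the list members 4 passed, with or without PRP39, 7 without normalization, 2 without a trend, 10 with array weights and 0 to 4 with 1 array left out. With the replicate block 6 passed, XTH19 and GID1B among them. The causes of these changes were not tested.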
